A study of Mus musculus with 8 samples.

Results

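The 10 genes described here belong to the antioxidant programme of the transcription factor NRF2 and to the glutathione and peroxide systems beside it: Nfe2l2, Keap1, Hmox1, Gclc, Gclm, Srxn1, Txnrd1, Gsr, Gpx4 and Cat. They were taken by gene symbol, and 10 of the 41128 genes in the deposited count table matched. RNA was sequenced from the corpus callosum, the large white matter tract between the hemispheres, of PLP-150Q mice. These mice model Huntington's disease by expressing a mutant huntingtin fragment from a promoter that is active mainly in oligodendrocytes. Every animal of both groups carried it, and no mice without the transgene were analysed here. Control mice (libraries 1 to 4) received purified water, and LAQ mice (libraries 5 to 8) received LAQ, read here as the oral immunomodulator laquinimod, at 5 mg/kg. Treatment began at 3 months of age and lasted 2 months, so the mice were 5 months old at collection. The design counts 4 mice per group, and no label ties a library to its mouse. If the libraries were not separate mice, the p-values reflect nothing beyond the variation of these samples, part of which may be technical. Libraries held 8790749 to 12021429 counts, with 20392 to 21214 genes detected in each. The corpus callosum was checked by summed marker levels: 12 mature oligodendrocyte markers reached 12201 to 16907 CPM (counts relative to library size, on the usual CPM scale) and 10 astrocyte markers 5586 to 6291 CPM. Markers of cortical excitatory neurons (2676 to 4243 CPM) were also present. A positive log2 fold change was found in 2 of 10 astrocyte markers and 4 of 12 cortical neuron markers. The 10 choroid plexus markers summed to 1256 to 4601 CPM in control (mean 2911) and 2810 to 6866 CPM in LAQ (mean 4755), with 9 of 10 positive in log2 fold change. Ependymal markers summed to 69.1 to 84.8 CPM in control and 90.7 to 114.2 CPM in LAQ (9 of 9 with a positive log2 fold change), and endothelial markers to 342 to 424 and 214 to 420 CPM (0 of 10 positive); their part in the results on the 10 genes was not tested.

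NRF2, the product of Nfe2l2, is held in the cytoplasm by KEAP1, an adaptor that brings it to a ubiquitin ligase for degradation. Oxidants and electrophiles modify cysteines of KEAP1, NRF2 then escapes degradation, pairs with a small MAF protein and binds antioxidant response elements in front of its target genes. Because this control acts mostly on the protein, the messenger RNA of the targets is usually read as the sign of NRF2 activity, rather than that of Nfe2l2 itself. Oligodendrocytes have high iron and a high metabolic load, and NRF2 targets in brain are otherwise most studied in astrocytes.

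The binding element was looked for in the RefSeq promoter windows (GRCm38.p6, 250 bases before to 50 after each annotated start). The letters searched were TGACNNNGC, the core of the antioxidant response element, on both strands. Variants of this core were not searched for, so a window may hold elements that are not listed here. Of the 10 genes, 7 had at least 1 window in that table, with 12 windows in all. The core was found in 4 of the 12 windows and in 4 of the 7 genes, beside 12.4% of all 32851 windows and 14.0% of all 27025 genes in the table. Among the tested genes with a window, it was found in 14.0% of 14316 windows and 16.7% of 11134 genes. The 4 matches are shown with 10 bases on either side, in the direction of the gene, with the core in capitals; where the core lies on the opposite strand it reads as GCNNNGTCA.
Nfe2l2: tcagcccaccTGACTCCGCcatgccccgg
Gclm: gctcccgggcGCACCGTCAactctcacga
Txnrd1: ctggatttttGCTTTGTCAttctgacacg
Srxn1: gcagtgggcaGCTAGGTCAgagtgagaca
The Nfe2l2 match lies at chr2:75704885-75704913 (minus strand), its core beginning 240 bases before the start. That of Gclm lies at chr3:122245413-122245441 and begins 134 bases before the start. In Txnrd1 it lies at chr10:82859104-82859132, 92 bases before the second of 3 listed starts. The Srxn1 match lies at chr2:152105542-152105570 and begins at base 29 of the transcript. Keap1, Cat and the 4 windows of Gpx4 held no match. A match is a run of letters in this window and was not tested as a binding site.

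All 10 genes were expressed in every library, with 57 to 2966 reads per gene and library, and all 10 passed the filter on low counts. Their levels were set side by side as CPM (library sizes scaled by TMM) per kilobase of exon, since longer transcripts collect more reads. Gpx4 was highest at 150.1 ± 6.12 CPM per kb (SD over 8 libraries). It was followed by Srxn1 at 44.9 ± 0.78 and Cat at 32.8 ± 1.91 CPM per kb. Gclc at 23.8 ± 1.57 and Keap1 at 23.5 ± 1.38 CPM per kb could not be ordered, since Gclc was the higher in only 5 of 8 libraries. Gsr stood at 18.3 ± 1.19 CPM per kb. Txnrd1 at 13.1 ± 0.57 and Gclm at 11.9 ± 0.72 CPM per kb had overlapping ranges, although Txnrd1 was the higher in 8 of 8 libraries. Nfe2l2 at 9.02 ± 0.95 and Hmox1 at 4.53 ± 1.08 CPM per kb were lowest. No other neighbours in this order overlapped. Among 14951 tested genes with a length, the mean level of Gpx4 lay at the 98.5th percentile, that of Nfe2l2 at the 62.8th and that of Hmox1 at the 43.7th.

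**Figure D1:**
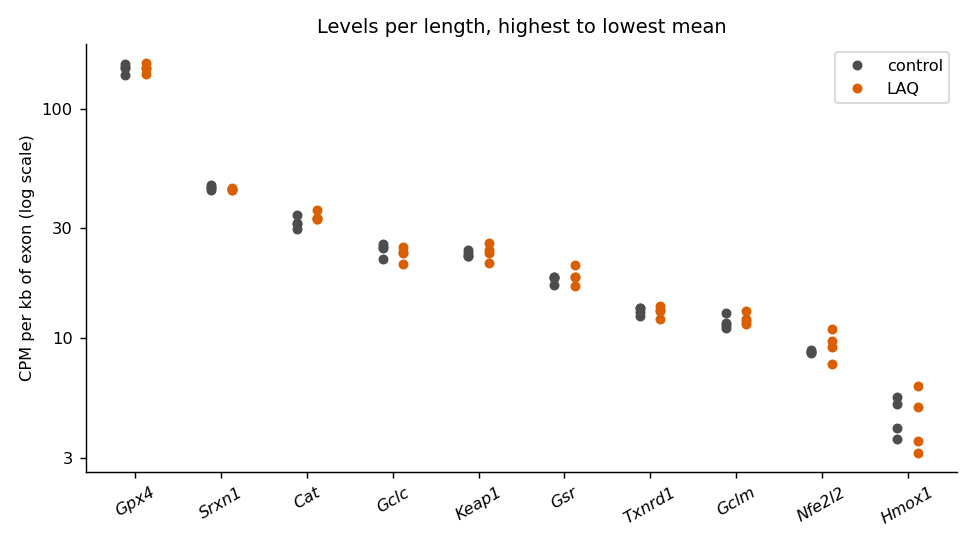
Level of each gene in CPM per kb of exon (log axis), with 1 point per library, control in grey and LAQ in orange, ordered by the mean over 8 libraries. Gpx4 sits near 150.1 CPM per kb and Hmox1 near 4.53 CPM per kb, and the control and LAQ points of every gene overlap.

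LAQ was compared with control to ask whether the drug altered this programme in the white matter of the model. No change was detected in any of the 10 genes. By edgeR's quasi-likelihood test, 0 of 10 had an adjusted p under 0.05, where 0% of the 15771 tested genes did, and the adjusted p of the 10 ran from 0.645 (Cat) to 0.999 (Gpx4). At an unadjusted edgeR p under 0.05 the count was again 0 of 10, beside 11.1% of all tested genes; the 1750 genes were 4.77% higher and 6.33% lower in LAQ. DESeq2 called 0 of the 10 (adjusted p 0.745 to 0.998), beside 0.845% of the genes it adjusted. The CPM ranges of the groups overlapped in 10 of 10 genes, while 6.39% of all tested genes had groups that did not overlap. The log2 fold change (LAQ minus control) was positive in 5 genes and negative in 5, beside 49.7% positive and 50.3% negative among all tested genes. Its median was 0.01 over the 10 genes and -0.0012 over all tested genes. The median size of the log2 fold change, whatever its sign, was 0.04 over the 10 genes and 0.12 over all tested genes. Such sizes tend to be smaller in well counted genes, as most of the 10 are.

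**Figure D2:**
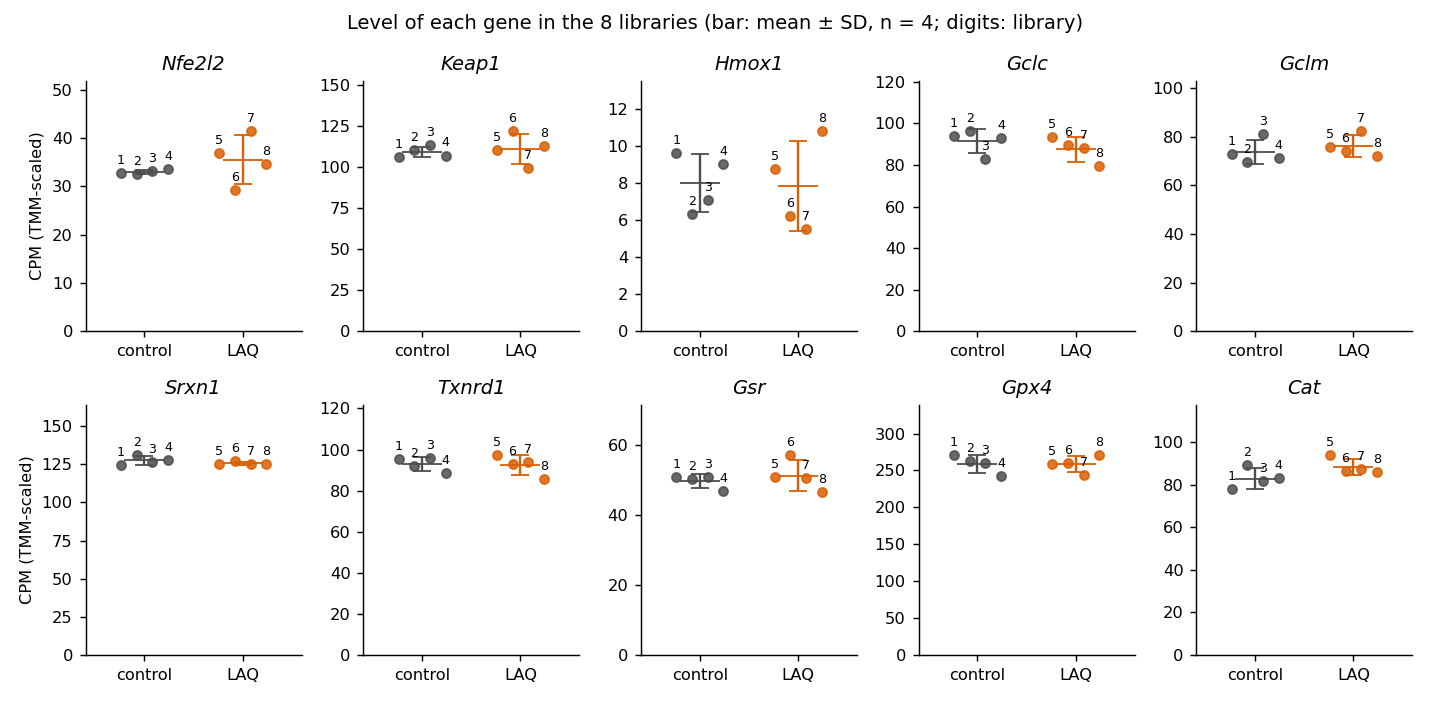
TMM-scaled CPM of each gene in the 4 control libraries (grey, numbered 1 to 4) and the 4 LAQ libraries (orange, numbered 5 to 8), each panel with its own axis from 0; bars give the mean ± SD (n = 4). In all 10 panels the points of the groups overlap, and Nfe2l2 and Hmox1 show the widest relative spread among the LAQ libraries.

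Of the regulators, Nfe2l2 encodes NRF2 itself. It lies on chromosome 2 from 75675513 to 75704641 (GRCm38, GENCODE M21, minus strand). Nfe2l2 stood at 32.8, 32.6, 33.1 and 33.5 CPM in control libraries 1 to 4 and at 36.9, 29.2, 41.4 and 34.5 CPM in LAQ libraries 5 to 8. The control libraries were nearly level, whereas LAQ 5, 7 and 8 lay above all of them and LAQ 6 below all of them. The means were 33.0 ± 0.39 and 35.5 ± 5.07 CPM (SD, n = 4 each), and the log2 fold change was 0.11 ± 0.10 (SE; edgeR adjusted p = 0.750). The 95% interval of the fold ran from 0.92 to 1.26. The coefficient of variation was 1.18% in control and 14.3% in LAQ, and at its mean count of 359.6 reads counting error alone gives 5.27%. The control libraries therefore lay closer together than counting error alone would give on average. Whether the spread itself differed between the groups was not tested.

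Keap1, whose product holds NRF2 back, lies on chromosome 9 from 21229730 to 21239361. It stood at 106.4, 110.5, 113.3 and 107.1 CPM in control and at 110.4, 122.0, 99.6 and 113.0 CPM in LAQ. LAQ 6 was the highest of the 8 libraries and LAQ 7 the lowest, which is the reverse of Nfe2l2. The means were 109.3 ± 3.20 and 111.3 ± 9.23 CPM (SD, n = 4 each). The log2 fold change was 0.03 ± 0.07 (SE), with a 95% interval of the fold from 0.91 to 1.136. Per kb of exon, the ratio of Nfe2l2 to Keap1 was 0.36 to 0.39 in the control libraries, 0.41 in LAQ 5, 0.30 in LAQ 6, 0.51 in LAQ 7 and 0.38 in LAQ 8. The antisense gene Gm16754 covers 510 bases (10.9%) of the Keap1 exons, and the strand setting of the counting was not given in the sources used here, so reads in that stretch cannot be assigned to one of the 2 genes.

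The LAQ libraries with the highest and the lowest oligodendrocyte marker sum were also the extremes of both regulators. The summed level of 12 markers of mature oligodendrocytes (Mbp, Mog, Mag and others) was 12201 to 13974 CPM in control, and 14762, 12938, 16907 and 15257 CPM in LAQ libraries 5 to 8. LAQ 7, with the highest sum, had the most Nfe2l2 and the least Keap1, and LAQ 6, with the lowest sum of the LAQ group, had the least Nfe2l2 and the most Keap1. The order did not hold throughout: LAQ 8 had a higher sum than LAQ 5 but less Nfe2l2 and more Keap1, and control 3 had a lower sum than LAQ 6 but more Nfe2l2 and less Keap1. None of the 12 markers was at 0, and all 12 had a positive log2 fold change. With the mean log2 CPM of these markers as a covariate in edgeR, the log2 fold change of Nfe2l2 was -0.21 ± 0.15 (SE, adjusted p = 0.483) and that of Keap1 was 0.23 ± 0.10 (SE, adjusted p = 0.233). That fit called 0.875% of all tested genes and 0 of the 10. Because all 12 markers had a positive log2 fold change, it cannot fully part the score from the group. The 12 cortical excitatory neuron markers summed to 3696 to 4243 CPM in control and 2676 to 4229 CPM in LAQ, with the lowest sum in LAQ 7. The part of these markers in the level of Nfe2l2 and Keap1 was not tested further. Without LAQ 7, the log2 fold change of Nfe2l2 was 0.02 ± 0.10 (SE), without LAQ 6 it was 0.19 ± 0.09 (SE, edgeR adjusted p = 0.551), and that of Keap1 without LAQ 7 was 0.08 ± 0.07 (SE). In bulk tissue, fewer cells of a type and less RNA per cell cannot be told apart.

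**Figure D3:**
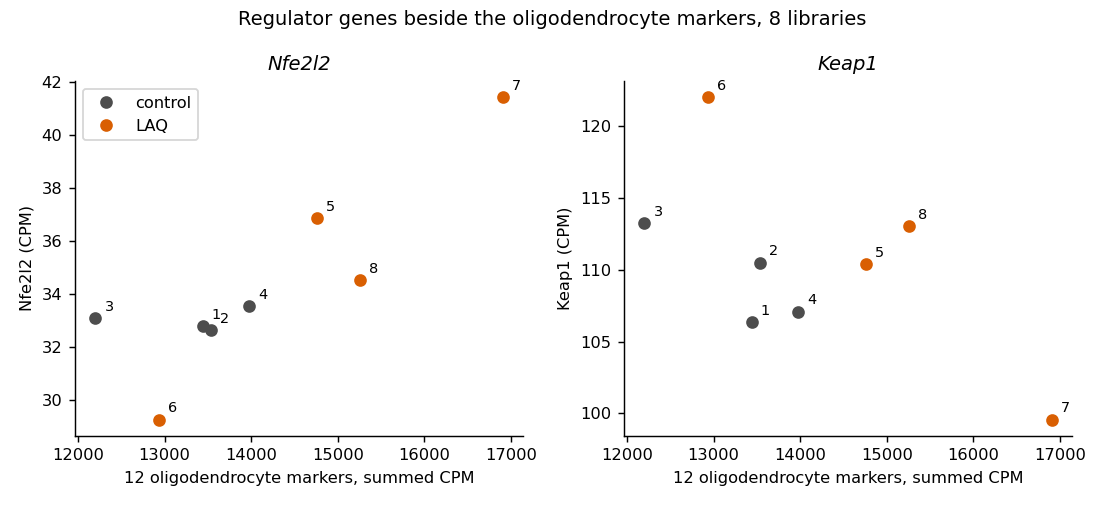
Level of Nfe2l2 (left) and Keap1 (right) in CPM against the summed CPM of 12 oligodendrocyte markers, with 1 numbered point per library, control in grey and LAQ in orange; no axis starts at 0. LAQ 7 lies at the right, with 41.4 CPM of Nfe2l2 and 99.6 CPM of Keap1, and LAQ 6 lies towards the left, with 29.2 CPM and 122.0 CPM.

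The genes most like Nfe2l2 across the 8 libraries were sought among the 10734 genes whose log2 CPM averaged 3 or more, which leaves out Hmox1. The measure was Pearson's r of log2 CPM with the group means taken out, given as a description without a test, and the points share their library and its depth. The highest were Epb4.1 (r = 0.98), Epc2 (0.97), Ubac1 (0.96), Galnt5 (0.96) and Chka (0.96). With the groups kept in, Sema6a (0.94), Tmprss5 (0.94), Adrm1 (0.94), Ubac1 (0.92) and Epb4.1 (0.91) led. Epb4.1, which encodes a protein of the membrane skeleton, stood at 16.1 CPM in LAQ 6 and 34.7 CPM in LAQ 7, beside 22.1 to 24.8 CPM in control. Of the 8 other genes of the set that were compared, Gclm came closest and ranked 1851st (r = 0.49) with group means taken out, and Keap1 ranked 10713th (r = -0.93). Nfe2l2 was nearly level in control (32.6 to 33.5 CPM). These values of r therefore rest mainly on the LAQ libraries, above all LAQ 6 and LAQ 7 (29.2 and 41.4 CPM of Nfe2l2).

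Glutathione is made by glutamate-cysteine ligase, whose catalytic subunit is encoded by Gclc (chromosome 9, 77754535 to 77794485) and whose modifier subunit is encoded by Gclm (chromosome 3, 122245557 to 122270732). Gclc stood at 93.9, 96.3, 82.8 and 93.1 CPM in control and at 93.5, 89.5, 88.0 and 79.3 CPM in LAQ. Control 3 and LAQ 8 were the low libraries of their groups, and the ranges overlapped. The means were 91.6 ± 5.98 and 87.6 ± 5.95 CPM (SD, n = 4 each), and the log2 fold change was -0.06 ± 0.08 (SE; edgeR adjusted p = 0.798). The 95% interval of its fold ran from 0.85 to 1.07. Gclm stood at 73.1, 69.7, 81.1 and 71.4 CPM in control and at 75.8, 74.1, 82.4 and 72.2 CPM in LAQ. Control 3 and LAQ 7 were its high libraries. Gclm averaged 73.8 ± 5.04 and 76.1 ± 4.42 CPM (SD, n = 4 each), with a log2 fold change of 0.04 ± 0.07 (SE) and a 95% interval of the fold from 0.92 to 1.15. Per kb of exon, Gclc was 1.71 to 2.31 times Gclm in control and 1.78 to 2.06 times in LAQ, so the balance of the subunits overlapped between the groups. Exons of Gclm overlap those of Gm17494 on the other strand by 296 bases and those of the pseudogene Gm6061 by 244 bases. These genes were counted at 82 and 9 reads over all 8 libraries, beside 784.6 reads per library for Gclm.

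Gsr (chromosome 8, 33652523 to 33698163) encodes glutathione reductase, which returns oxidised glutathione to its reduced form. Its levels were 50.8, 50.1, 50.9 and 46.8 CPM in control and 50.8, 57.1, 50.5 and 46.4 CPM in LAQ. LAQ 6 stood above the other 7 libraries. The log2 fold change was 0.04 ± 0.08 (SE; edgeR adjusted p = 0.874), with a 95% interval of the fold from 0.91 to 1.16. Txnrd1 (chromosome 10, 82833951 to 82897712) encodes cytosolic thioredoxin reductase, a selenoprotein that keeps thioredoxin reduced. It stood at 95.6, 91.9, 95.9 and 88.6 CPM in control and at 97.5, 92.8, 93.9 and 85.5 CPM in LAQ. The 2 groups covered nearly the same range, with a log2 fold change of -0.0080 ± 0.07 (SE; edgeR adjusted p = 0.980) and a 95% interval of the fold from 0.90 to 1.1. Per kb of exon, the ratio of Txnrd1 to Gsr was 0.71 to 0.73 in control and 0.63 to 0.75 in LAQ.

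Srxn1 (chromosome 2, 152105516 to 152111376) encodes sulfiredoxin, which repairs overoxidised peroxiredoxins and is widely used as a marker of NRF2 activity. It was the steadiest of the 10 genes, at 124.4, 131.2, 126.8 and 127.7 CPM in control and at 125.3, 127.0, 125.0 and 125.0 CPM in LAQ. All 4 LAQ values lay inside the control range. The means were 127.5 ± 2.82 and 125.6 ± 0.98 CPM (SD, n = 4 each), and the log2 fold change was -0.02 ± 0.06 (SE; edgeR adjusted p = 0.921). Its coefficient of variation, 2.21% in control and 0.78% in LAQ, lay below the 2.75% that counting error alone gives at its mean count. The 95% interval of the fold, 0.90 to 1.07, was the narrowest of the 10 on the log2 scale.

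Cat and Gpx4 remove peroxides. Cat (chromosome 2, 103453849 to 103485160) encodes catalase of the peroxisome. Its levels were 77.9, 89.4, 81.7 and 83.1 CPM in control and 94.2, 86.5, 87.4 and 86.2 CPM in LAQ. LAQ 5 was the highest library and control 2 lay inside the LAQ range. The means were 83.0 ± 4.81 and 88.6 ± 3.80 CPM (SD, n = 4 each). The log2 fold change of 0.09 ± 0.07 (SE) had the smallest p of the 10 genes (edgeR unadjusted p = 0.198, adjusted p = 0.645), and the 95% interval of the fold ran from 0.96 to 1.18. Gpx4 (chromosome 10, 80047166 to 80056439) encodes the glutathione peroxidase that reduces lipid hydroperoxides in membranes and so restrains ferroptosis, an iron-dependent form of cell death. It stood at 270.4, 262.3, 260.3 and 242.6 CPM in control and at 259.4, 259.6, 244.3 and 271.3 CPM in LAQ. Its means of 258.9 ± 11.7 and 258.6 ± 11.1 CPM (SD, n = 4 each) were the closest of the 10 genes in log2 fold change (-0.0016 ± 0.06, SE), with a 95% interval of the fold from 0.91 to 1.1. GENCODE M21 also lists a pseudogene of Gpx4, and reads that fit both may have been dropped, so the count of Gpx4 is uncertain.

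Hmox1 (chromosome 8, 75093621 to 75100589) encodes the inducible haem oxygenase, which opens haem to biliverdin, iron and carbon monoxide and is among the most inducible NRF2 targets. It was counted at only 57 to 109 reads per library. Hmox1 stood at 9.65, 6.35, 7.09 and 9.02 CPM in control and at 8.76, 6.21, 5.52 and 10.8 CPM in LAQ. Each group held 2 libraries at 8.76 CPM or above and 2 at 7.09 CPM or below, so the groups overlapped. LAQ 8 lay above all control libraries, and LAQ 6 and LAQ 7 lay below all of them. The means were 8.03 ± 1.56 and 7.83 ± 2.43 CPM (SD, n = 4 each), and the log2 fold change was -0.05 ± 0.23 (SE; edgeR adjusted p = 0.953). The 95% interval of its fold was the widest of the 10, from 0.68 to 1.36, so the data bound its change only loosely. Without LAQ 8 the log2 fold change was -0.24, and without LAQ 7 it was 0.08. The choroid plexus marker sum was 3976, 1256, 1811 and 4601 CPM in control libraries 1 to 4 and 6866, 2810, 3563 and 5779 CPM in LAQ libraries 5 to 8. Its 2 highest libraries in each group (control 1 and 4, LAQ 5 and 8) were the 2 highest in Hmox1. Microglia and macrophages express Hmox1, and the sum of their 10 markers was 639 to 698 CPM in control and 584 to 700 CPM in LAQ. Of these markers, 2 of 10 had a positive log2 fold change. Blood cell markers summed to 245 to 534 CPM in control and 447 to 620 CPM in LAQ. All 4 of the tested ones had a positive log2 fold change, and none of the 6 was at 0. In control libraries 1 to 4 the microglia and macrophage sum (697.5, 638.5, 665.7 and 665.9 CPM) had the same order as Hmox1. In LAQ libraries 5 to 8 (583.8, 654.2, 699.5 and 643.4 CPM) it did not. LAQ 7 had the least Hmox1 and the highest microglia and macrophage sum. Control 1 had the most Hmox1 of its group and the lowest blood sum. The part of any of these cell types in the level of Hmox1 was not tested.

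The other 9 genes had folds whose 95% intervals lay between 0.85 and 1.26, so the data bound their mean differences more closely than that of Hmox1. Within-group SDs of log2 CPM lay below the median of all tested genes (0.17) in 9 of the 10, with a median of 0.09 over the 10, and Hmox1 was the exception at 0.37. The 10 genes are mostly well counted, and SDs fall with depth.

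**Figure D4:**
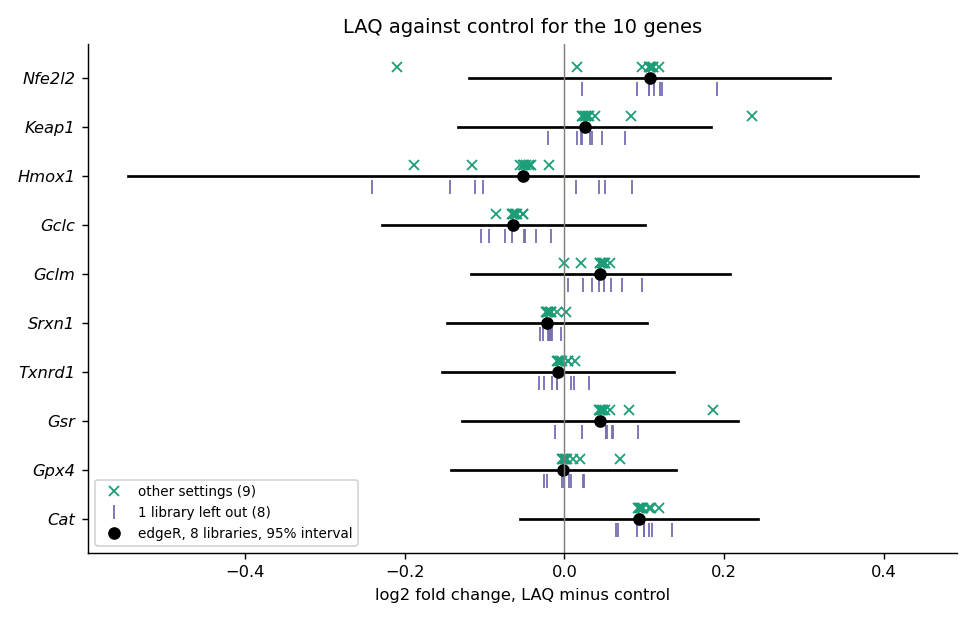
Log2 fold change of each gene, LAQ minus control: black points and lines give the edgeR value and its 95% interval over 8 libraries, green crosses the 9 other settings, and purple ticks the 8 fits with 1 library left out. Every 95% interval includes 0, that of Hmox1 is the widest, and the outlying crosses of Nfe2l2 (-0.21) and Keap1 (0.23) are the fit with oligodendrocyte markers as a covariate.

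The wider programme was followed in 7 lists holding 114 distinct genes, all found in the table, of which 106 passed the filter. No gene of these lists passed edgeR's test over all genes or DESeq2's. At an unadjusted edgeR p under 0.05, 9 were higher and 1 lower (9.43%, beside 11.1% of all tested genes, of which 4.77% were higher and 6.33% lower), and 4 higher and 2 lower had no overlap between the groups (5.66%, beside 6.39%). The median log2 fold change of the 106 genes was 0.04, beside -0.0012 over all tested genes. The genes under that p were mostly higher in LAQ, and whether this split differs from that of all tested genes was not tested.

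Of 14 regulators and partners of NRF2, 7 had a positive and 7 a negative log2 fold change, with a median of 0.01. An unadjusted edgeR p under 0.05 was found in 1 of them (7.14%, beside 11.1% of all tested genes). That gene was Mafg, which encodes a small MAF partner of NRF2. Mafg stood at 127.2, 125.7, 122.6 and 122.0 CPM in control and at 102.2, 94.0, 115.5 and 99.2 CPM in LAQ. All 4 LAQ libraries lay below all 4 control libraries, as in 3.61% of all tested genes, with a log2 fold change of -0.28 ± 0.07 (SE; edgeR adjusted p = 0.229, DESeq2 adjusted p = 0.0876). It passed edgeR's test without LAQ 7 (-0.34 ± 0.06, SE; adjusted p = 0.0237; 2.13% of all tested genes passed) and with the cortical marker score as covariate (-0.34 ± 0.07, SE; adjusted p = 0.0186; 4.01% passed). LAQ 7 had the most Mafg of the LAQ libraries and the lowest cortical marker sum of all libraries, so these 2 settings are not independent. Nfe2l1, which encodes the related factor NRF1, had a log2 fold change of -0.12 ± 0.07 (SE). Cul3, the ligase scaffold that KEAP1 recruits, stood at 0.18 ± 0.13 (SE), and Bach1, a repressor that competes for the same elements, at -0.37 ± 0.29 (SE).

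Of 24 further NRF2 targets, 15 had a positive and 9 a negative log2 fold change, with a median of 0.03. An unadjusted edgeR p under 0.05 was found in 1 of them (4.17%, beside 11.1% of all tested genes). That gene was Gstp1, a glutathione transferase, with means of 90.0 ± 5.08 and 104.7 ± 7.64 CPM (SD, n = 4 each). Its log2 fold change was 0.22 ± 0.07 (SE, edgeR adjusted p = 0.329). All LAQ libraries lay above the control range, as in 2.78% of all tested genes. The near copy Gstp2 makes the count of Gstp1 uncertain. With the oligodendrocyte marker score as covariate the log2 fold change of Gstp1 was 0.09 ± 0.12 (SE), in a fit that cannot fully part the score from the group. Ftl1, the ferritin light chain, averaged 297.2 ± 10.3 and 273.8 ± 6.68 CPM (SD, n = 4 each), with a log2 fold change of -0.12 ± 0.06 (SE, edgeR adjusted p = 0.482). Each LAQ library lay below the lowest control, as in 3.61% of all tested genes. Groups without overlap, in either direction, made up 8.33% of this list and 6.39% of all tested genes. Gsta4 stood at 0.24 ± 0.14 and Taldo1, an enzyme of the pentose phosphate pathway, at 0.11 ± 0.06 (log2 fold change, SE). Nqo1 and Slc7a11 were added after their values were seen, as textbook NRF2 targets. Nqo1, a quinone reductase, averaged 8.59 ± 2.24 and 9.86 ± 1.02 CPM (SD, n = 4 each), with a log2 fold change of 0.19 ± 0.18 (SE; edgeR adjusted p = 0.736). Slc7a11, the cystine importer, averaged 97.9 ± 5.90 and 95.3 ± 6.96 CPM (SD, n = 4 each), with a log2 fold change of -0.04 ± 0.07 (SE; edgeR adjusted p = 0.884).

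Among 14 genes of glutathione synthesis, turnover and transport, 8 had a positive and 6 a negative log2 fold change, with a median of 0.04. Only Lancl1 had an unadjusted edgeR p under 0.05 (7.14% of the list, beside 11.1% of all tested genes). Lancl1, a glutathione-binding protein, stood at 0.21 ± 0.09 and Ggct, a gamma-glutamyl cyclotransferase, at 0.30 ± 0.16 (log2 fold change, SE). Chac1, which breaks glutathione down, stood at 0.34 ± 0.18 and Ggt5 at -0.47 ± 0.27. None of the 4 passed the test, with edgeR adjusted p of 0.435 to 0.528. Chac1 stood at 0.20 without LAQ 8, and Ggt5 at -0.24 without control 1. With the cortical marker score as covariate, Lancl1 passed edgeR's test (0.30 ± 0.07, SE; adjusted p = 0.0418), as did 4.01% of all tested genes.

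The list of glutathione peroxidases, transferases and glutaredoxins had the most genes at an unadjusted edgeR p under 0.05, 5 of 27 and all higher, beside 4.77% of all tested genes higher at that p. In all, 17 had a positive and 10 a negative log2 fold change, with a median of 0.10. Gstm7, a mu-class transferase, stood at 24.6, 29.4, 31.3 and 27.3 CPM in control and at 37.0, 38.7, 34.4 and 35.1 CPM in LAQ. All 4 LAQ libraries lay above the control range, as in 2.78% of all tested genes, with a log2 fold change of 0.37 ± 0.09 (SE; edgeR adjusted p = 0.221, DESeq2 adjusted p = 0.0746). With the cortical marker score as covariate, Gstm7 passed edgeR's test (0.42 ± 0.10, SE; adjusted p = 0.0345), as did 4.01% of all tested genes. Gpx8, a peroxidase of the endoplasmic reticulum, averaged 8.13 ± 2.16 and 12.7 ± 2.37 CPM (SD, n = 4 each), again without overlap, with a log2 fold change of 0.63 ± 0.20 (SE; edgeR adjusted p = 0.294). Gpx8 was highest in control 1 and 4 and in LAQ 5 and 8, the libraries of each group with the most choroid plexus markers, whose part in it was not tested. With the oligodendrocyte marker score as covariate its log2 fold change was 0.33 ± 0.33 (SE). Hagh, a hydrolase of the glyoxalase system, stood at 0.19 ± 0.07 (SE; edgeR adjusted p = 0.356). Gstp1, given above among the further NRF2 targets, is in this list too and was also 1 of the 5. The last of them, Gstm6, had a log2 fold change of 0.97 ± 0.42 (SE; edgeR adjusted p = 0.431). Without LAQ 6 it was 0.42 ± 0.33 (SE), and with limma voom (0.81 ± 0.44, SE) or robust edgeR (0.97 ± 0.47, SE) the unadjusted p was no longer under 0.05. It passed edgeR's test with the oligodendrocyte marker score as covariate (2.38 ± 0.40, SE; adjusted p = 0.0290). In that fit 0.875% of all tested genes passed. All 12 markers of the score had a positive log2 fold change, so that fit cannot fully part the score from the group. The mu-class genes are close paralogs, so reads may have been split or dropped between them. Gpx2, Gsta1, Gsta2, Gstm3, Gstp2 and Mgst2 lay below the filter and were not tested.

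Of 22 thioredoxins, peroxiredoxins and superoxide dismutases with their partners, 12 had a positive and 10 a negative log2 fold change, with a median of 0.02. Prdx3, the mitochondrial peroxiredoxin, stood at 0.19 ± 0.08 and Sesn1, a sestrin, at 0.26 ± 0.11 (log2 fold change, SE). These 2 had an unadjusted edgeR p under 0.05 (9.09% of the list, beside 11.1% of all tested genes). Sesn3 stood at -0.36 ± 0.20 and the methionine sulfoxide reductase gene Msrb3 at -0.26 ± 0.18. The haem and iron list had 4 positive and 4 negative among 8 tested genes, with a median of 0.01, and 0 at an unadjusted edgeR p under 0.05. Its Hmox2, the constitutive haem oxygenase, stood at 0.15 ± 0.08 and Slc40a1, the iron exporter ferroportin, at -0.18 ± 0.13 (log2 fold change, SE). Fech, the last enzyme of haem synthesis, stood at 0.11 ± 0.09. Of 9 tested ferroptosis genes, 5 had a positive and 4 a negative log2 fold change, with a median of 0.10. Lpcat3, an acyltransferase of phospholipid remodelling, stood at 0.20 ± 0.08. It was the list's 1 gene with an unadjusted edgeR p under 0.05 (11.1% of the list, beside 11.1% of all tested genes). Gch1 stood at -0.58 ± 0.36, Dhodh at 0.14 ± 0.09 and Alox12 at 0.41 ± 0.30 (log2 fold change, SE).

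**Figure D5:**
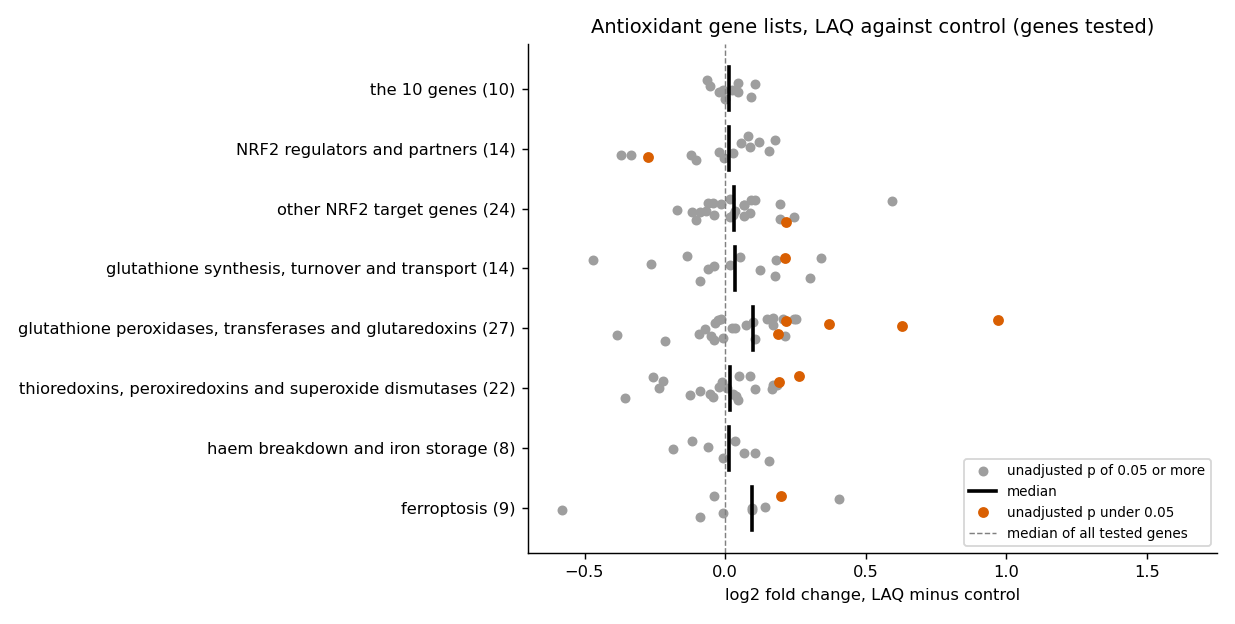
Log2 fold change (LAQ minus control) of each tested gene in the 10 genes and the 7 wider lists, with the number tested in brackets; black bars are medians, orange points have an unadjusted edgeR p under 0.05 and the dashed line is the median of all tested genes. The 10 genes lie within 0.11 of 0, and the medians of the wider lists run from 0.01 to 0.10.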

How the data were processed

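RNA-seq of corpus callosum was deposited as 1 raw count per gene symbol and library, and these counts were used as the authors deposited them. GRCm38.p3 is the build named in the submitters' processing notes, and the tools named there are STAR 2.5.2b, HTSeq, bcl2fastq 2.17.1.14 and DESeq2 1.10.1. The sources used here give neither annotation release nor strand setting. Total counts ran from 8790749 to 12021429 per library, and 0 columns were left unused. A second deposited table of size-factor-normalized values was not used.

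Groups came from the sample titles, with 4 control and 4 LAQ libraries. Genes were kept by filterByExpr (minimum count 10, minimum total 15), which left 15771. LAQ was compared with control by edgeR 4.0.16 (TMM, quasi-likelihood, two-sided, no covariate), with Benjamini-Hochberg adjustment over all tested genes and a threshold of 0.05. SEs are the log2 fold change divided by the square root of F. Log2 CPM used a prior count of 2. Alternatives were other scalings and filters, DESeq2 1.42.0, limma 3.58.1 (voom), robust estimation, 2 marker scores as covariates and leaving out each library. Exon lengths and positions came from GENCODE M21 and promoters from RefSeq. The fit was tested on simulated data.

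The 10 genes, the lists and the settings were chosen with earlier results of these data known. Named genes of a list were the 4 of smallest p. Nqo1, Slc7a11 and Gstm6 were named in addition. Counting error covers sampling of reads only.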

Additional observations from a re-analysis of the deposited data

Results flagged for a closer look

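Of 72 group-and-gene combinations checked (4 libraries each, the 10 genes and the named genes of the wider lists), 4 had a library whose gap to the next, as a share of the group's range, exceeded Dixon's 95% critical value for 4 samples. Chance alone gives about 1 in 20. Srxn1 stood at 127.0 CPM in LAQ 6, beside 125.0 to 125.3 CPM in LAQ 5, 7 and 8, a small difference that stands out because those 3 lay so close. Cat stood at 94.2 CPM in LAQ 5, beside 86.2 to 87.4 CPM in LAQ 6, 7 and 8. Its log2 fold change was 0.07 without LAQ 5. Chac1 stood at 8.11 CPM in LAQ 8, beside 5.53 to 5.76 CPM in the other LAQ libraries. Hagh stood at 107.1 CPM in control 3, beside 102.5 to 103.0 CPM in the other control libraries.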

How the results depend on the processing

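None of the 10 genes passed the threshold in any of the 17 alternative settings (170 values, adjusted p 0.233 to 0.99987), but 25 of those values changed sign. No paired analysis was possible because the groups share no replicate number. Leaving out 1 library gave log2 fold changes of -0.026 to 0.025 for Gpx4, -0.032 to 0.030 for Txnrd1, -0.24 to 0.084 for Hmox1, -0.021 to 0.076 for Keap1, -0.012 to 0.092 for Gsr, 0.022 to 0.19 for Nfe2l2, -0.10 to -0.017 for Gclc, 0.0050 to 0.097 for Gclm, -0.031 to -0.0043 for Srxn1 and 0.065 to 0.13 for Cat. With the oligodendrocyte score as covariate, Nfe2l2 stood at -0.21, Gclm at -2.2e-05, Srxn1 at 0.0021, Txnrd1 at 0.013 and Gpx4 at 0.069. That fit cannot fully part the score from the group. With the cortical score, Txnrd1 stood at 0.0044 and Gpx4 at 0.020. Gpx4 stood at 0.0024 with median-of-ratios factors, 0.011 without a filter, 0.00023 with at least 1 CPM in 4 libraries and 0.0031 with DESeq2, and Txnrd1 at 0.0045 without a filter. Over all genes the count of calls, 0 in the main comparison, was 25 without a filter, 129 with DESeq2, 632 with the cortical score, 138 with the oligodendrocyte score, and 0 to 339 when 1 library was left out (339 without LAQ 7). Among the 106 genes of the wider lists it was 3 with the cortical score (Mafg, Lancl1, Gstm7), 1 with the oligodendrocyte score (Gstm6) and 0 to 1 when 1 library was left out (Mafg, without LAQ 7). The median of the NRF2 regulators turned to -0.06 with the cortical score or without LAQ 7, and to -0.12 with the oligodendrocyte score. That of glutathione synthesis turned to -0.04 with the cortical score or without LAQ 7, and to -0.03 with the oligodendrocyte score, which moved that of haem and iron to 0.20. Among the named genes of the lists, the oligodendrocyte score took Mafg to -0.46, Lancl1 to 0.48, Gstm7 to 0.58, Hagh to 0.31 and Sesn1 to 0.41. That score took Ggct to 0.53, Ggt5 to -0.93, Gsta4 to 0.69, Msrb3 to -0.68 and Slc40a1 to -0.41. With it, Fech stood at 0.25, Hmox2 at 0.25, Gch1 at -1.60, Bach1 at -0.18 and Alox12 at 0.16. Leaving out 1 library gave 0.10 to 0.30 for Cul3, -0.64 to -0.21 for Bach1, -0.56 to -0.24 for Sesn3, -0.29 to -0.12 for Slc40a1, 0.07 to 0.17 for Fech and -0.96 to -0.35 for Gch1; it brought Nfe2l1 to -0.07 (without LAQ 8), Gsta4 to 0.38 (LAQ 7), Msrb3 to -0.13 (control 4) and Hmox2 to 0.10 (LAQ 5). The causes were not tested. Hmox1 had the lowest mean count of the 10 genes (82.6 reads) and the widest within-group spread (SD of log2 CPM 0.37).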
